A study of Mus musculus with 6 samples.

Results

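Keratinocytes, the epithelial cells of the epidermis, release chemokines, small secreted or membrane-held proteins that recruit leukocytes into the skin. The 9 chemokine genes described here are *Cxcl1*, *Cxcl2*, *Cxcl5*, *Ccl20*, *Ccl2*, *Ccl27a*, *Cxcl14*, *Cxcl16* and *Cx3cl1*, chosen by gene name as chemokines that keratinocytes are known to make, out of 55367 gene names in the count table. All 9 were among the 14916 genes with enough counts to be tested. The cells were primary keratinocytes from the skin of newborn mice of mixed C57BL/6 and 129/Sv background, with loxP sites flanking exon 8 in both copies of *Ppp1r13l*, the gene for iASPP, and a Cre recombinase that tamoxifen activates. Cultures of 3 batches were each divided: 1 portion received tamoxifen at 1 mM per the labels, 24 h into culture (iASPP-KO, n = 3), and the other did not (iASPP-WT, n = 3). Both groups carried the floxed alleles and the Cre, and tamoxifen was given only to iASPP-KO cells, so an effect of the drug and one of the deletion cannot be told apart.

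Chemokines are grouped by the spacing of their first cysteines. CXC chemokines with the ELR motif (*Cxcl1*, *Cxcl2*, *Cxcl5*) attract neutrophils through *Cxcr2*. Among CC chemokines, *Ccl20* attracts *Ccr6*-bearing dendritic cells and T cells, *Ccl2* attracts *Ccr2*-bearing monocytes, and *Ccl27a* attracts skin-homing T cells through *Ccr10*. *Cxcl14* is made by resting epithelia, while *Cxcl16* and *Cx3cl1* are made as membrane-anchored proteins that sheddases can release, and they bind *Cxcr6* and *Cx3cr1*. Transcription of several of these genes is known to be induced by interleukin-1 family cytokines, TNF and IL-17 through NF-κB and AP-1. iASPP is itself known as an inhibitor of NF-κB and a partner of p53 family and AP-1 proteins, and the comparison asked which chemokine transcripts differed when it was deleted.

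Libraries held between 20202517 and 25157117 counts in genes, and 3 counts corresponded to 0.123 to 0.140 CPM (counts per 1000000 counts, scaled here by TMM factors). *Ppp1r13l* was lower in iASPP-KO cells of every batch, at 12.6 ± 6.07 CPM against 32.9 ± 12.04 CPM (SD, n = 3 each); on the log2 scale the difference was -1.45 ± 0.18 (SE; edgeR quasi-likelihood test with batch, Benjamini-Hochberg adjusted p = 0.00296). The 8 keratinocyte markers summed to 28842 to 33721 CPM, with *Krt14* at 15886 CPM in iASPP-KO and 16106 CPM in iASPP-WT cells, and none of the 8 passed the test (1 at an unadjusted p under 0.05). Batch 3 stood apart in both groups: the 8 fibroblast markers summed to 491 CPM in iASPP-KO and 720 CPM in iASPP-WT cells there, against 53.7 to 75.4 CPM in the other 4 libraries. The 6 melanocyte markers were present in every library (355 to 1090 CPM) and the 4 endothelial markers summed to 2.71 to 13.0 CPM. The 12 leukocyte markers summed to 72.9 to 85.1 CPM in iASPP-KO and 50.3 to 68.1 CPM in iASPP-WT cells, with *Ptprc* (CD45) at 0.930 and 1.10 CPM and *Cd3e* at 0 in all 6. *Trdc*, another of them, was at 1.87, 2.15 and 0 CPM in iASPP-KO cells of batches 1, 2 and 3. In iASPP-WT cells it was at 0, 0.041 and 0 CPM. *Cd74* went the other way, at 0.030 CPM in iASPP-KO and 0.214 CPM in iASPP-WT cells, and neither was tested. In such bulk samples a change in the share of cells of a type and a change in RNA per cell cannot be told apart.

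Of the 9 chemokines, 4 were higher in iASPP-KO cells (*Cxcl1*, *Cxcl5*, *Ccl20* and *Ccl2*), none was higher in iASPP-WT cells and 5 did not pass the test. Among all genes tested, 2.17% were called higher in iASPP-KO and 1.95% higher in iASPP-WT cells, 4.12% in either direction. At an unadjusted p under 0.05, 6 chemokines were higher in iASPP-KO cells and 1, *Cxcl14*, was higher in iASPP-WT cells. Of all 14916 genes tested, 1292 and 1206 were higher in iASPP-KO and iASPP-WT cells at that cut. DESeq2 with batch called 4 higher in iASPP-KO and 0 higher in iASPP-WT cells. The median log2 fold change was 1.16 over the 9 and 0.01 over all genes tested. Within batches, 7 of the 9 differed in the same direction in all 3, as did 39.3% of all genes tested, and 6 of the 9 were higher in iASPP-KO cells in all 3, as were 19.5% of all genes. Pooled over batches, the ranges of the groups overlapped for all 9, whereas 10.7% of all genes did not overlap and 5.26% did not overlap and were higher in iASPP-KO cells. The batches differed in level within a group: iASPP-WT libraries alone spanned 4.16-fold for *Cxcl1* and 18.0-fold for *Ccl20*. Without batch in the edgeR model, 0 of the 9 were called (0 also at an unadjusted p under 0.05), and the adjusted p of the 4 called genes was 0.973.

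**Figure D1:**
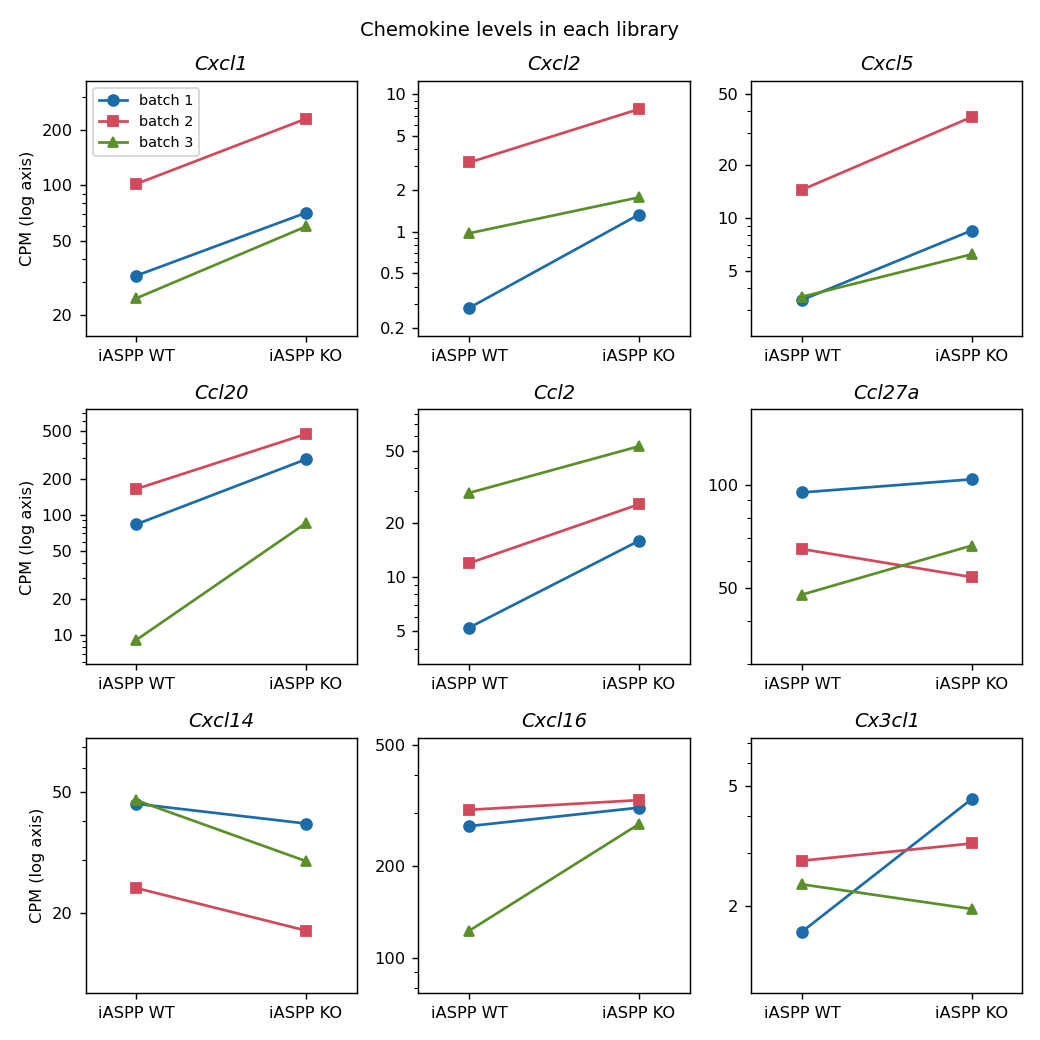
Level of each chemokine in CPM (log axis, scale set per panel) in iASPP-WT and iASPP-KO libraries; each line joins the cultures of 1 batch (3 batches). The lines of *Cxcl1*, *Cxcl5*, *Ccl20*, *Ccl2*, *Cxcl2* and *Cxcl16* climb in all 3 batches, those of *Cxcl14* descend in all 3, and those of *Ccl27a* and *Cx3cl1* go both ways.

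The neutrophil-attracting chemokines were led by *Cxcl1*, the gene for the KC protein, which lies at chr5:90891241-90893115 on the plus strand (GRCm38). In batch 1 it was at 32.5 CPM in iASPP-WT and 71.0 CPM in iASPP-KO cells, in batch 2 at 102 and 229 CPM, and in batch 3 at 24.5 and 59.9 CPM. The iASPP-KO culture was the higher of each pair, by 2.19-fold, 2.25-fold and 2.44-fold, although the iASPP-WT culture of batch 2 lay above the iASPP-KO cultures of batches 1 and 3. *Cxcl1* rose 2.29-fold (95% interval 1.91 to 2.74; adjusted p = 0.00109, edgeR), and its adjusted p was tied for the lowest among all genes tested.

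*Cxcl5*, at chr5:90759360-90761624, was at 3.41 and 8.45 CPM in iASPP-WT and iASPP-KO cells of batch 1, at 14.4 and 37.1 CPM in batch 2, and at 3.56 and 6.19 CPM in batch 3. Batch 2 again held the highest values of both groups. *Cxcl5* rose 2.25-fold (95% interval 1.59 to 3.18; adjusted p = 0.0203, edgeR). The call was lost without batch 1 (adjusted p = 0.0543) and without batch 2 (adjusted p = 0.306), both by edgeR, where the log2 fold changes were 1.11 and 1.06.

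*Cxcl2* (MIP-2), at chr5:90903871-90905938, was scarce. It had 6 counts in iASPP-WT and 30 counts in iASPP-KO cells of batch 1, 78 and 174 counts in batch 2, and 22 and 42 counts in batch 3, or 0.281 and 1.33, 3.19 and 7.80, and 0.978 and 1.78 CPM. The iASPP-KO culture was higher in each batch, but the fold ran from 1.82 to 4.75. The fitted value was 2.63-fold, with an interval of 1.18 to 5.83 that is not adjusted for the number of genes, and the adjusted p of 0.200 (edgeR) missed the threshold. Of the read-length windows (42 nt) along its longest annotated transcript, 5.73% also occurred in *Cxcl3*, so reads from those windows could not be assigned to 1 gene. For *Cxcl5* 3.02% of such windows occurred in other gene names. Transcripts for these windows came from an earlier GENCODE release than the counts.

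*Cxcl1* and *Cxcl2* are close neighbours on chromosome 5 and both promoters were in RefSeq's table (GRCm38.p6), as was that of *Ccl20*, the chemokine with the largest fold change. Their 250 bases before RefSeq's annotated start are shown because the same stretch of letters recurs in the first 2. Distances below count from RefSeq's starts, which can differ from the gene positions printed with each chemokine. The *Cxcl1* stretch ends at 90891244 and the gene starts at 90891241. For *Cxcl2* the stretch ends at 90903898 and the gene starts at 90903871. Capitals mark matches to the κB motif, the sequence bound by NF-κB, searched on both strands with overlapping matches joined.
*Cxcl1* promoter, chr5:90890995-90891244, plus strand: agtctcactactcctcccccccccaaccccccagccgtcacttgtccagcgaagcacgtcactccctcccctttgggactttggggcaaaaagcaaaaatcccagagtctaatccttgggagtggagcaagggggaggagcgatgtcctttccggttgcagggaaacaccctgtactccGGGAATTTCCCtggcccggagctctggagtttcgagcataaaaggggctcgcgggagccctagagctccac
*Cxcl2* promoter, chr5:90903649-90903898, plus strand: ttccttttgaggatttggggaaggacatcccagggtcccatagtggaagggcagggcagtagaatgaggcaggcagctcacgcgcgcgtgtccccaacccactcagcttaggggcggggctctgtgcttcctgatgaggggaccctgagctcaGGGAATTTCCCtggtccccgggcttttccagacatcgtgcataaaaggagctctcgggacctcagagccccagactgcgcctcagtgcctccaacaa
*Ccl20* promoter, chr1:83116516-83116765, plus strand: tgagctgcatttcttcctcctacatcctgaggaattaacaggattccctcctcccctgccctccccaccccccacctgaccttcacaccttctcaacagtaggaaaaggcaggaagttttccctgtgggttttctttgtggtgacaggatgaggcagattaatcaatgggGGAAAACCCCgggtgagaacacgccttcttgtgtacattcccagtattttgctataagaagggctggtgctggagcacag
The longest run shared by the *Cxcl1* and *Cxcl2* stretches was 14 bases, GGGAATTTCCCTGG, and it began 71 bases before the start of *Cxcl1* and 97 bases before that of *Cxcl2*. The 15 pairs of promoters available among these chemokines otherwise shared runs of 7 to 10 bases. *Ccl20* held 1 match to the κB motif, 80 bases before its start, and *Cxcl14*, *Cx3cl1* and the 3 annotated starts of *Ccl27a* held none. The *Cx3cl1* stretch, chr8:94771930-94772179, lay in part inside the gene, which starts at 94772009. Those of *Ccl27a* lay wholly or in part inside its gene. For both, fewer bases before the gene were thus searched. Of 32851 mouse promoter stretches of the same length, 3.90% held a match. The AP-1 motif TGANTCA, present in 6.75% of them, was found only upstream of 1 start of *Ccl27a*. Such matches are letters in a window, and binding was not measured. Promoters of *Cxcl5*, *Ccl2* and *Cxcl16* were not analysed here.

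The ELR chemokines sit in a cluster that also holds *Ppbp*, *Pf4*, *Cxcl3* and *Cxcl15*, in the order *Cxcl5*, *Ppbp*, *Pf4*, *Cxcl3*, *Cxcl15*, *Cxcl1*, *Cxcl2* on the plus strand; these neighbours were taken up after their values were seen. *Cxcl3*, another neutrophil attractant, was at 1.96 and 2.27 CPM in iASPP-WT and iASPP-KO cells of batch 1, 5.12 and 10.6 CPM in batch 2, and 1.51 and 1.23 CPM in batch 3, and did not pass the test (log2 fold change 0.36 ± 0.42 SE; adjusted p = 0.753, edgeR). *Ppbp*, a platelet chemokine, had at most 3.05 CPM in any library and a log2 fold change of 2.77 ± 1.12 (SE; adjusted p = 0.241, edgeR). *Pf4* reached at most 1.33 CPM and was not tested, and *Cxcl15* had no count in any library. Of the 7 genes of the cluster, 2 were called, *Cxcl1* and *Cxcl5*, while *Pf4* and *Cxcl15* could not be called because they were not tested. Among all genes tested, 2.17% were called higher in iASPP-KO cells.

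*Ccl20* (MIP-3α), at chr1:83116766-83119167 on the plus strand, had the largest fold change of the 9. It was at 83.5 CPM in iASPP-WT and 290 CPM in iASPP-KO cells of batch 1, at 164 and 470 CPM in batch 2, and at 9.11 and 85.4 CPM in batch 3. The iASPP-WT culture of batch 3 was far below all others, and the fold within that batch was 9.37, against 3.47 and 2.86 in batches 1 and 2. *Ccl20* rose 4.36-fold (95% interval 2.90 to 6.56; adjusted p = 0.00282, edgeR). Without batch 3 the log2 fold change was 1.65 in place of 2.13. The call was lost with edgeR's robust dispersion (adjusted p = 0.114), at the same fold change.

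*Ccl2* (MCP-1), at chr11:82035571-82037453 on the plus strand, was at 5.24 and 15.8 CPM in iASPP-WT and iASPP-KO cells of batch 1, at 11.9 and 25.2 CPM in batch 2, and at 29.2 and 52.9 CPM in batch 3. Unlike the ELR chemokines and *Ccl20*, it was highest in batch 3 in both groups. *Ccl2* rose 2.23-fold (95% interval 1.67 to 2.99; adjusted p = 0.00955, edgeR). Fibroblasts and monocytes also make *Ccl2*. The summed fibroblast markers were highest in batch 3 as well. In iASPP-KO against iASPP-WT cells they were at 53.7 against 60.7 CPM in batch 1, 75.4 against 66.1 CPM in batch 2 and 491 against 720 CPM in batch 3, so they were lower in batches 1 and 3 and higher in batch 2, while *Ccl2* was higher in all 3. Of the 8 fibroblast markers, 2 were called lower in iASPP-KO cells, the collagen genes *Col1a2* and *Col3a1*, and none was called higher. At an unadjusted p under 0.05, the same number were lower and 1 was higher, *Pdgfra* (log2 fold change 0.81 ± 0.34 SE; adjusted p = 0.258, edgeR). Without batch 3, *Ccl2* had a log2 fold change of 1.33 (adjusted p = 5.03e-06, edgeR). The summed leukocyte markers, by contrast, were higher in the iASPP-KO culture of each batch, at 72.9 against 50.3 CPM, 76.3 against 60.7 CPM and 85.1 against 68.1 CPM. Of the 12, 6 were tested and 1 was called, *Csf1r*, the receptor for macrophage colony-stimulating factor, at 17.5 ± 11.8 against 8.69 ± 6.59 CPM (SD, n = 3 each; adjusted p = 0.0206, edgeR). Single leukocyte markers differed in pattern over the batches. *Lyz2* was at 59.0 and 49.5 CPM in iASPP-KO and iASPP-WT cells of batch 3, and at most 4.80 CPM in the other batches. *Csf1r* and *Cd68* were lowest in batch 3 in both groups. In batch 2 *Cd68* was lower in iASPP-KO cells, at 38.3 against 42.4 CPM. The part of the fibroblast and leukocyte markers in the difference in *Ccl2*, or in any other chemokine, was not tested.

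**Figure D2:**
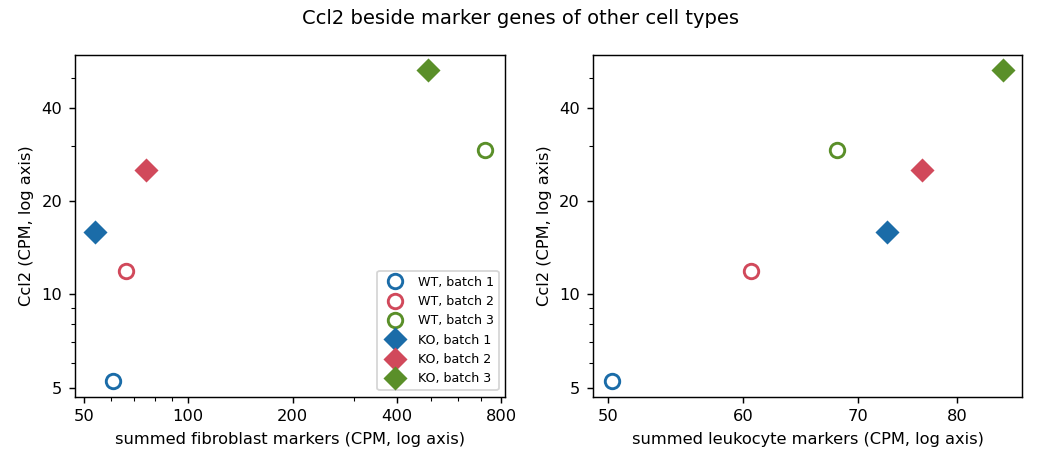
*Ccl2* (CPM, log axis) plotted against the summed CPM of 8 fibroblast markers (left, log axis) and of 12 leukocyte markers (right, log axis) in each of 6 libraries. Batch 3 lies at 491 and 720 CPM of fibroblast markers, all others at 75.4 CPM or less, and in each batch the iASPP-KO library lies above and to the right of its iASPP-WT partner in the leukocyte panel.

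*Ccl27a*, the skin T-cell attractant, showed no called difference. It was at 94.9 and 104 CPM in iASPP-WT and iASPP-KO cells of batch 1, at 64.8 and 53.7 CPM in batch 2, and at 47.7 and 66.3 CPM in batch 3. The direction differed between batches, and the 95% interval of the fold ran from 0.857 to 1.36 (adjusted p = 0.793, edgeR). The gene lies at chr4:41769467-41774247 on the minus strand, with further exons under the same name on scaffolds JH584293.1 and JH584294.1. Of its read-length windows, 73.7% also occurred in copies such as *Gm13306* and *Gm21953*, so its level is uncertain.

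*Cxcl14*, at chr13:56288643-56296551 on the minus strand, was the only member with a negative fold change. It was at 45.7 and 39.4 CPM in iASPP-WT and iASPP-KO cells of batch 1, at 24.2 and 17.6 CPM in batch 2, and at 46.9 and 29.6 CPM in batch 3. The iASPP-KO culture was the lower in each batch, at 0.861, 0.726 and 0.632 of its partner. The log2 fold change was -0.45 ± 0.15 (SE), and the adjusted p of 0.158 (edgeR) missed the threshold.

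Of the membrane-anchored chemokines, *Cxcl16*, at chr11:70453983-70459984 on the minus strand, was at 271 and 312 CPM in iASPP-WT and iASPP-KO cells of batch 1, at 307 and 330 CPM in batch 2, and at 123 and 275 CPM in batch 3. The iASPP-WT culture of batch 3, which was also lowest for *Ccl20*, was low, and the other 5 libraries lay within 271 to 330 CPM. The fold was 1.40 (95% interval 1.05 to 1.86; adjusted p = 0.213, edgeR), and the log2 fold change fell from 0.49 to 0.15 without batch 3. It passed in 1 of 10 alternatives, the one with nearly no filter on low counts (adjusted p = 0.00435, edgeR). *Zmynd15* overlaps 18.3% of its exon bases on the opposite strand and had at most 77 counts in any library, and counting was by strand.

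*Cx3cl1* (fractalkine), at chr8:94772009-94782427 on the plus strand, was scarce, at 1.64 and 4.54 CPM in iASPP-WT and iASPP-KO cells of batch 1, 2.83 and 3.23 CPM in batch 2, and 2.36 and 1.95 CPM in batch 3. Its direction differed between batches, and the interval of the fold, 0.628 to 3.00, allows a change in either direction (adjusted p = 0.738, edgeR).

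**Figure D3:**
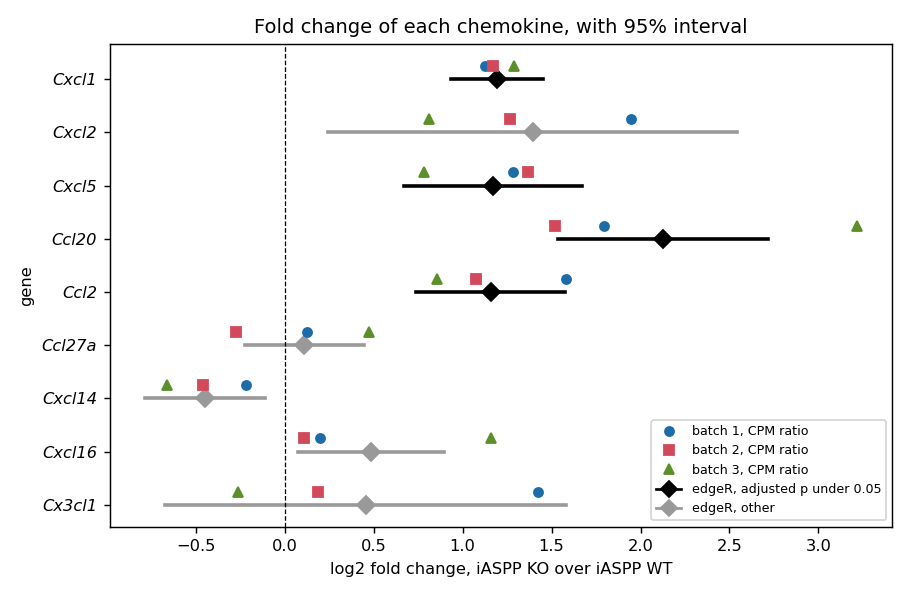
Log2 fold change of iASPP-KO over iASPP-WT for the 9 chemokines: diamonds with bars give the edgeR estimate and its 95% interval (not adjusted for the number of genes), black where the adjusted p was under 0.05, and small symbols give the log2 ratio of CPM within each batch. *Cxcl1* has the narrowest bar of the 4 called genes (log2 fold change 1.20 ± 0.12 SE) and *Ccl20* lies farthest right (2.13 ± 0.26 SE).

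Per kilobase of exon (RPKM), the most abundant chemokine transcripts of iASPP-WT cells were *Cxcl16* (77.3 ± 32.3) and *Ccl20* (60.3 ± 54.7), followed by *Cxcl1* (28.2 ± 22.7), *Cxcl14* (21.3 ± 6.99), *Ccl27a* (19.4 ± 6.71) and *Ccl2* (13.6 ± 10.9), all as mean ± SD of 3. *Cxcl5* (3.82 ± 3.38), *Cxcl2* (0.718 ± 0.736) and *Cx3cl1* (0.578 ± 0.152) lay below them. Of neighbours in that order, the ranges of *Cxcl5* and *Cxcl2* did not overlap, and those of all other neighbours did. In iASPP-KO cells *Ccl20* came first (198 ± 136 RPKM), ahead of *Cxcl16* (101 ± 9.25), *Cxcl1* (64.0 ± 50.5), *Ccl2* (27.5 ± 16.9), *Ccl27a* (20.9 ± 7.30), *Cxcl14* (15.8 ± 5.98), *Cxcl5* (9.27 ± 9.26), *Cxcl2* (1.76 ± 1.75) and *Cx3cl1* (0.824 ± 0.329), and the ranges of every pair of neighbours overlapped. *Ccl20* was above *Cxcl16* in 2 of 3 iASPP-KO libraries, whereas *Cxcl16* was above *Ccl20* in 2 of 3 iASPP-WT libraries. The place of *Ccl27a* in either order is uncertain. Its RPKM divides by 3562 exon bases summed over chromosome 4 and the scaffolds, whereas its longest transcript has 996 bases. Other genes also share 73.7% of its read-length windows. Together the 9 genes took 538, 694 and 287 CPM in iASPP-WT cells of batches 1, 2 and 3, and 846, 1174 and 579 CPM in their iASPP-KO partners.

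The chemokines differed in their pattern over the 6 libraries. On log2 CPM centred per gene, the root mean square difference was smallest between *Cxcl1* and *Cxcl5* (0.24) and largest between *Ccl20* and *Ccl2* (2.25) among the 36 pairs. Among all tested genes, *Cxcl5*, *Dhrs9* and *Psca* had the patterns most like *Cxcl1* (0.24 to 0.27), and *Gm44292*, *Cxcl1* and *Dhrs9* those most like *Cxcl5* (0.23 to 0.26). Those most like *Ccl20* were *Prr9*, *Mal* and *Slc6a14* (0.30 to 0.35), each called higher in iASPP-KO cells. *H2bc1*, *Gm9920* and *E230016K23Rik* were nearest to *Ccl2* (0.18 to 0.30), and *Bcl2l15*, *Lce3f* and *Csf3* to *Cxcl2* (0.38 to 0.40). For the chemokines that were not called, the nearest were *2200002D01Rik* to *Cxcl16* (0.07), *Setd1a* to *Ccl27a* (0.10), *Rab25* to *Cx3cl1* (0.12) and *Kdelr3* to *Cxcl14* (0.14). These likenesses describe 6 libraries that share batches.

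**Figure D4:**
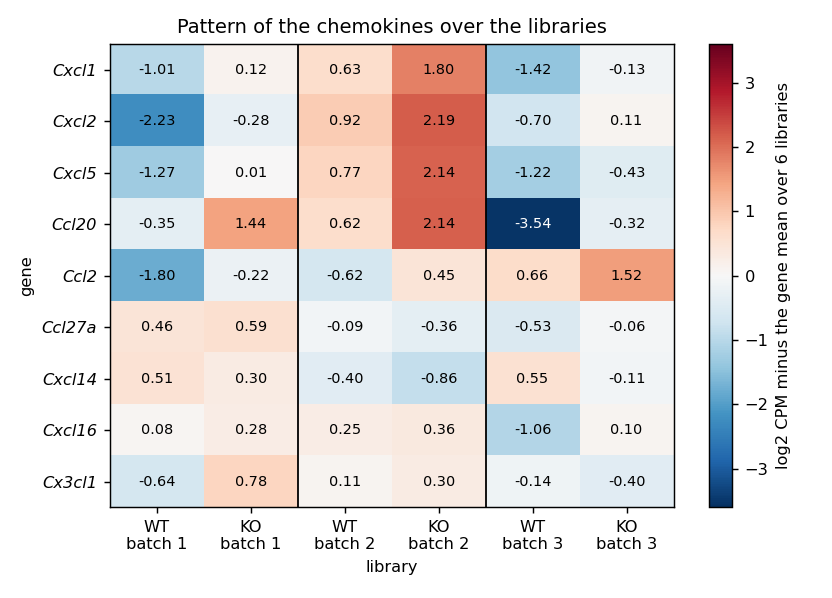
Log2 CPM of each chemokine minus its mean over the 6 libraries (colour and printed number), with libraries in pairs by batch. The highest value is in iASPP-KO cells of batch 2 for *Cxcl1*, *Cxcl2*, *Cxcl5* and *Ccl20*, but in those of batch 3 for *Ccl2*, and the lowest cell is *Ccl20* in iASPP-WT cells of batch 3 (-3.54).

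The pathway around these chemokines was followed in 7 lists of 112 further genes. Of the 70 tested, 5 were higher in iASPP-KO and 1 was higher in iASPP-WT cells, against 2.17% and 1.95% of all genes tested. At an unadjusted p under 0.05 (edgeR), 19 and 4 of the 70 were, against 1292 and 1206 of all 14916 genes tested. The other chemokine ligands held 32 genes, of which 9 were tested and none was called (2 higher in iASPP-KO and 1 higher in iASPP-WT cells at an unadjusted p under 0.05, edgeR), and their log2 fold changes had a median of 0.40. Of 23 chemokine receptors 7 were tested and none was called (2 and 0 at an unadjusted p under 0.05, edgeR), with a median of 1.07. Receptors for the chemokines above were scarce: *Ccr6*, the receptor for *Ccl20*, had no count in any library, which allows up to 0.123 to 0.140 CPM. *Cxcr2* was at 1.21 ± 0.456 CPM in iASPP-KO and 0.573 ± 0.200 CPM in iASPP-WT cells (SD, n = 3 each; adjusted p = 0.611, edgeR). *Cx3cr1* was at 1.96 and 1.94 CPM, and *Ccr2*, *Ccr10* and *Cxcr6* did not exceed 0.445 CPM in any library. Singled out after their values were seen, the myeloid genes *Ccl6* (log2 fold change 1.56; adjusted p = 0.0639, edgeR) and *Ccr1* (1.11; adjusted p = 0.0757, edgeR) were the nearest to the threshold among these ligands and receptors. *Ccl6* was at 41.6 and 15.6 CPM in iASPP-KO and iASPP-WT cells of batch 3, and at most 2.29 CPM in the other batches. *Ccr1* was lowest in batch 3 in both groups, at 3.10 and 1.96 CPM.

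Among 17 cytokines and cytokine receptors known to induce keratinocyte chemokines, 14 were tested, 3 were higher in iASPP-KO and 1 was higher in iASPP-WT cells (6 and 1 at an unadjusted p under 0.05, edgeR), with a median log2 fold change of 0.39. *Il36a*, an interleukin-1 family cytokine of epithelia listed in the table as *Il1f6*, was at 8.56 and 26.6 CPM in iASPP-WT and iASPP-KO cells of batch 1, 13.5 and 41.2 CPM in batch 2, and 2.13 and 10.5 CPM in batch 3 (log2 fold change 1.81 ± 0.21 SE; adjusted p = 0.00192, edgeR). *Il1a* was at 46.9 and 97.8 CPM, 104 and 206 CPM, and 26.5 and 46.4 CPM in the same order (0.96 ± 0.12; adjusted p = 0.00276, edgeR). Both were higher in iASPP-KO cells of every batch, as was *Cxcl1*. *Il36g*, listed as *Il1f9*, rose by a log2 fold change of 0.76 ± 0.18 (adjusted p = 0.0490, edgeR), close to the threshold. *Il1r1*, the signalling receptor for IL-1α and IL-1β, fell from 24.3 ± 7.55 to 13.8 ± 5.13 CPM (-0.84 ± 0.19; adjusted p = 0.0371, edgeR). *Il1b* reached at most 0.795 CPM and was not tested, and *Il17a* had no count in any library. *Tnf* was at 14.7 ± 3.19 and 12.3 ± 6.85 CPM (adjusted p = 0.579, edgeR).

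In the NF-κB list, 1 of 22 tested genes was called, where 4.12% of all genes tested were called in either direction. The called gene was *Nfkbia*, the NF-κB inhibitor IκBα and itself a transcriptional target of NF-κB. It was at 203 and 353 CPM in iASPP-WT and iASPP-KO cells of batch 1, 330 and 532 CPM in batch 2, and 118 and 247 CPM in batch 3, and rose by a log2 fold change of 0.85 ± 0.12 (SE; adjusted p = 0.00433, edgeR). The list's median was 0.04, and at an unadjusted p under 0.05 (edgeR) 4 of its genes were higher in iASPP-KO and 1 was higher in iASPP-WT cells. *Tnip1*, a binding partner of A20 singled out after its value was seen, was the nearest to the threshold of all uncalled genes of the 7 lists (adjusted p = 0.0529, edgeR). Of 7 AP-1 subunits *Junb* alone was called (487 ± 113 against 344 ± 82.3 CPM; log2 fold change 0.50 ± 0.11 SE; adjusted p = 0.0296, edgeR), with a median of 0.37. At an unadjusted p under 0.05 (edgeR), 4 of the 7 were higher in iASPP-KO and 1 was higher in iASPP-WT cells. None of 7 regulators of chemokine mRNA stability was called (1 higher in iASPP-KO cells at an unadjusted p under 0.05, edgeR; median -0.02). The 4 genes listed for the shedding of *Cxcl16* and *Cx3cl1*, not all of them sheddases, had a median of 0.01. None was called (0 at an unadjusted p under 0.05, edgeR).

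**Figure D5:**
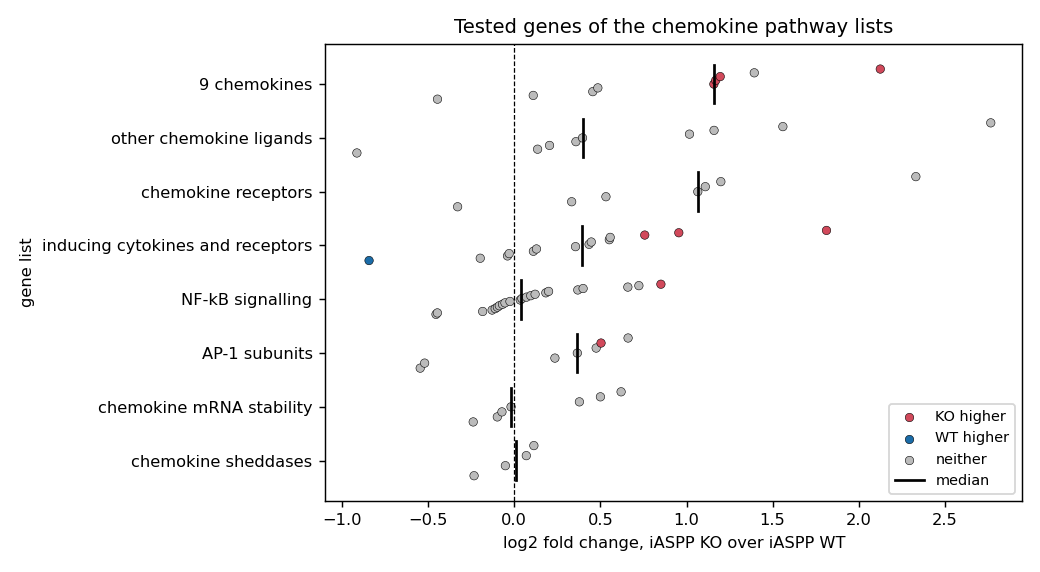
Log2 fold change of iASPP-KO over iASPP-WT for each tested gene of the 9 chemokines and of 7 pathway lists (1 point per gene, black bar at the list's median, colour by the edgeR call at an adjusted p under 0.05). The median lies at 1.16 for the 9 chemokines, 0.40 for the other ligands, 0.39 for the inducing cytokines and receptors and 0.04 for NF-κB signalling.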

How the data were processed

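Total RNA depleted of ribosomal RNA was sequenced as 42-nt single reads from 6 cultures. The authors trimmed reads with cutadapt 2.10 (FastQC 0.11.9 for quality), aligned them with STAR 2.7.3 to mm10 with GENCODE vM25 and deposited raw counts per gene name over exons, counted on the reverse strand with featureCounts 2.0.0. The Cre was expressed from the ROSA26 locus. The labels give the tamoxifen concentration in mM and the methods in μM. A deposited table of the authors' DESeq2 comparison (fold changes and p-values) was not used.

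Counts were tested here with edgeR 4.0.16 in R 4.3.3 (filterByExpr, TMM, quasi-likelihood test, model of batch and group, threshold 0.05 after Benjamini-Hochberg adjustment over 14916 genes). The labels state that each batch was divided into both groups, so batch pairs the cultures: deviations from the group means correlated at 0.302, 0.368 and 0.568 within batches and at -0.427 to 0.179 between them. Residual degrees of freedom were 2, and the common dispersion was 0.0627. The test also borrowed variance from the trend over all genes tested (prior degrees of freedom 8.17). Values are CPM scaled by TMM factors, RPKM divides them by the exon bases in the table, and ± is the SD or SE as named. Intervals cover the 95% level. Nothing states that batches were separate litters, so p-values measure the spread between these cultures, in part as shared over genes. DESeq2 1.42.0, other scalings, other filters, robust dispersion, no batch term and omission of each batch were alternatives. The tests were tried on simulated data. The rule for named genes took all 9 chemokines, the receptors of their ligands, called genes of the pathway lists (up to 4 per list), markers, and up to 3 genes nearest to each chemokine in pattern. Outside it, *Cxcl3*, *Ppbp*, *Pf4*, *Cxcl15*, *Ccl6*, *Ccr1*, *Tnip1*, *Tnf*, *Il1b* and *Il17a* were named after their values were seen. The chemokines and lists were chosen with earlier results of these data known.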

Additional observations from a re-analysis of the deposited data

How the results depend on the processing

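With batch in the model, the 4 called chemokines kept a positive fold change in all 9 alternatives, and 3 to 5 of the 9 were called. *Cxcl1* and *Ccl2* passed in all 9, *Ccl20* in 8 and *Cxcl5* in 7. Without the replicate block the edgeR fit called 0 chemokines, 0 genes of the pathway lists in either direction (5 and 1 with it) and 0 of all genes in either direction (360 and 331 at an unadjusted p under 0.05), against 323 higher in iASPP-KO and 291 higher in iASPP-WT cells with it. Leaving out each batch in turn gave 169 to 793 genes higher in iASPP-KO and 117 to 662 higher in iASPP-WT cells, the most without batch 3, 3 to 4 chemokines, and 3 to 14 and 0 to 1 pathway genes. With nearly no filter on low counts, 624 and 491 genes, 5 chemokines, and 10 and 2 pathway genes were called, and DESeq2 called 2 pathway genes higher in iASPP-WT cells. The sign turned for *Ccl27a* without batch 3 (log2 fold change -0.070; range over omitted batches -0.070 to 0.30) and for *Cx3cl1* without batch 1 (-0.033; -0.033 to 0.82), neither called in any fit. *Cxcl2* was not tested at 10 counts or more in every library. Without a batch, 2 pairs remained, and the cause of these changes was not tested.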
